A study of Mus musculus with 6 samples.

Results

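Transcripts of 7 transcription factors that mark regions of the mouse brain, *Bcl11b*, *Mef2c*, *Prox1*, *Lmx1a*, *Meis1*, *Otx1* and *Npas3*, were followed across 6 brain arrays. Every probe set, a group of array probes for a piece of a gene, was taken whose only annotated symbol was one of these. This gave 76 of the 58919 probe sets tested and 7 of the 5017 genes with a symbol of their own. The purpose was to see whether markers of forebrain, hippocampus and midbrain differed between arrays, as a check of the dissection.

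Total RNA of mouse brain was hybridised to a 1-colour Affymetrix array. The 3 knockout arrays came from mice of the genotype APPPS1-FVBxABCC1 and the 3 control arrays from APPPS1-FVB mice. Both groups carry the APPPS1 transgenes, in which a *Thy1* promoter drives mutant human APP and presenilin 1 in neurons so that amyloid plaques form, and the mice labelled knockout carry in addition the *Abcc1* knockout that their genotype names. *Abcc1* encodes an exporter of glutathione conjugates, and it had 0 probe sets among those tested, so the labels could not be checked on it. *App* and *Thy1* also had 0 probe sets tested. The labels give no age, sex, batch or dissection. Whether each array holds a different animal is not stated, and the p-values then describe array-to-array spread, which may be technical.

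Regional transcription factors are set up while the neural tube is patterned, and many stay on in the adult neurons of the territory they helped to specify. In a sample that mixes territories, the level of such a gene follows how much of its territory went in. It also follows how strongly each cell expresses the gene. In these bulk samples, fewer cells of a type and less RNA per cell cannot be told apart. *Bcl11b* (also called Ctip2) is a zinc finger factor of corticospinal neurons, striatal projection neurons and hippocampus. *Mef2c* is a MADS-box factor of cortical and hippocampal excitatory neurons, expressed in microglia too. *Prox1* is a homeobox factor that maintains dentate gyrus granule cells. *Lmx1a* is a LIM homeobox factor of midbrain dopamine neurons and of the roof plate. *Meis1* is a homeobox partner of Hox and Pbx proteins, *Otx1* a homeobox factor of deep-layer cortical neurons, and *Npas3* a bHLH-PAS factor of neural progenitors, astrocytes and neurons.

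The sequences just upstream of the annotated starts of *Bcl11b*, *Mef2c* and *Prox1* are shown because these were the 3 members with the largest positive differences of gene means, a choice made after the values were seen. They are RefSeq sequences of GRCm38.p6, 250 bases before the start, 5′ to 3′ in the direction of the gene (minus strand for *Bcl11b* and *Prox1*, plus strand for *Mef2c*), and for genes with several starts the most upstream one. Capitals mark TATAAA, the TATA box letters, or its reverse complement TTTATA. The *Bcl11b* window holds none, and the marked stretches of *Mef2c* and *Prox1* read TTTATA, so they are not TATAAA in the direction of the gene.
Bcl11b chr12:108003415-108003664: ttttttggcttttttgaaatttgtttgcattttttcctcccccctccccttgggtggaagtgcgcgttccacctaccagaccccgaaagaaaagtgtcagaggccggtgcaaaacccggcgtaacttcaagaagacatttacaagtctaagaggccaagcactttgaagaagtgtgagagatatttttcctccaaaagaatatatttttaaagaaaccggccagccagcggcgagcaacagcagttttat
Mef2c chr13:83503784-83504033: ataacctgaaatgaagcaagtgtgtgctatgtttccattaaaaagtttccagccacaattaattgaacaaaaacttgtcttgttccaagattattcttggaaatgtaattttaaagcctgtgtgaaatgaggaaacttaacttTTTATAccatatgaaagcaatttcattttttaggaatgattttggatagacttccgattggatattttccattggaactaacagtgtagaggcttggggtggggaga
Prox1 chr1:190170828-190171077: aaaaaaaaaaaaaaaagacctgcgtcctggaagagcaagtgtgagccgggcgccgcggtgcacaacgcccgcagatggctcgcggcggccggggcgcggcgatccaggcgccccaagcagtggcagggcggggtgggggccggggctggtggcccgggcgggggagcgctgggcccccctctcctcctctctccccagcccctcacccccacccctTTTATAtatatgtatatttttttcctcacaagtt
The RefSeq table held 9 such windows for 6 of the 7 members, and *Otx1* was not in it. On both strands, TATAAA occurred in 3 of 9 member windows, each time as its reverse complement, against 12.4% of all 32851 windows. TAATTA, the core bound by many homeodomain factors, occurred in 1 of 9, the second start of *Mef2c*, against 4.84% of all. TAATCC, bound by Otx proteins (6.25% of all), TGACAG, bound by Meis proteins (15.9% of all), and the MEF2 consensus (2.92% of all) occurred in 0 of 9. Overlap between motifs was allowed. These matches are descriptions of the letters in these windows.

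Array medians of the tested probe sets ran from 7.05 to 7.09 on the log2 scale in knockouts and from 7.04 to 7.06 in controls. Pairs of arrays correlated between 0.984 and 0.990 across probe sets. The brain label was checked on markers: *Syt1*, a synaptic vesicle protein of neurons, averaged 11.66 in knockouts and 11.61 in controls, and *Glul*, the glutamine synthetase of astrocytes, 10.64 in knockouts and 10.62 in controls. Genes of 5 chromosomes made up 4918 of the 5017. The members lie on chromosome 1 (*Prox1*, *Lmx1a*), 11 (*Meis1*, *Otx1*), 12 (*Bcl11b*, *Npas3*) and 13 (*Mef2c*).

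Before the members are described, 2 arrays need to be named. *Gabra6*, the GABA-A receptor subunit of cerebellar granule cells, had gene means, that is the log2 signal averaged over its 12 probe sets, of 3.53, 5.74 and 3.69 in knockouts 1, 2 and 3 and of 3.87, 3.82 and 6.70 in controls 1, 2 and 3. Its range over the 6 arrays, 3.17, was the widest of all 5017 genes, and the high values lay in knockout 2 and control 3, 1 array of each genotype. *Fat2*, a protocadherin of the same granule cells, was likewise highest on those 2 arrays, with 4.77, 5.44 and 4.97 in knockouts and 4.998, 5.07 and 5.73 in controls. The median range over all genes was 0.23. No *Gabra6* probe set was above the background defined below on every array, and the 2 genes were picked from the cerebellar list after their values were seen. Only 6 of the 34 genes in that list were measured, and no other had its 2 highest values on knockout 2 and control 3. *Aldoc* is also in the astrocyte list, *Lhx1* in the hypothalamic list and *Etv1* in the pallial and olfactory bulb lists. Those genes thus do not mark cerebellum alone. *Slc1a6* was highest on control 3 (6.76) but lowest on knockout 2 (6.42). *Lhx1* and *Aldoc* were highest on control 2 (5.39 and 11.31). *Etv1* was highest on knockout 2 (9.76), with control 3 (9.54) below knockout 3 (9.57). Neither *Gabra6* nor *Fat2* passed the test between genotypes: the limma adjusted p was 0.837 for *Gabra6* and 0.714 for *Fat2*. What set knockout 2 and control 3 apart was not tested, and values without both of them are given below.

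**Figure D1:**
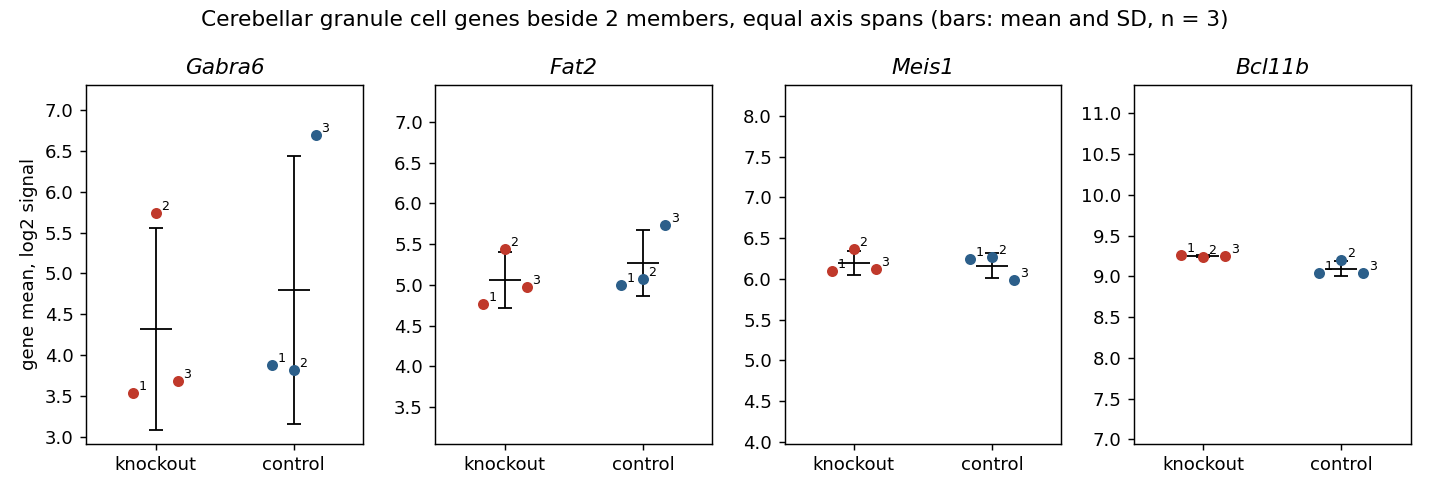
Gene means (log2 signal over all probe sets of a gene) of *Gabra6*, *Fat2*, *Meis1* and *Bcl11b* in the 3 knockout and 3 control arrays. Points are arrays numbered by replicate, bars are mean and SD, and every axis spans the same number of log2 units. *Gabra6* reached 5.74 in knockout 2 and 6.70 in control 3 and lay between 3.53 and 3.87 elsewhere, while the range of *Meis1* was 0.38.

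No member passed the test between the genotypes. Of the 76 member probe sets, 0 passed a limma adjusted p below 0.05 over all probe sets, where 0.00509% of all passed. At an unadjusted p below 0.05 there were 4 member probe sets (5.26%), against 7.69% of all. Of these 3 were higher, where 4.75% of all were, and 1 was lower, where 2.94% of all were. The smallest adjusted p was 0.56, at *Npas3*. By gene means, 0 of 7 members passed, as did 0% of all genes, and only *Bcl11b* had an unadjusted p below 0.05, where 14.1% of all genes did and 7.95% did so on the higher side. Of the 76, 46 were higher in knockouts (60.5%), against 52% of all, and 29 were lower, against 47.2% of all. After quantile normalization 44 were higher, against 47.8% of all, and after median centring 40 were, against 47.1% of all. All 3 knockout values lay above all 3 control values in 10 member probe sets (13.2%), against 7.94% of all, and below them in 2 (2.63%), against 5.52% of all. Of those 10, 6 belong to *Mef2c* and 2 to *Bcl11b*, and probe sets of 1 gene read the same transcripts, so they are not separate observations. By gene means 5 members were higher and 2 lower, where 48.2% of all genes were higher and 51.4% lower. The share of all genes that were higher was 42.7% after quantile normalization and 38.9% after median centring. All 3 knockouts lay above all 3 controls in 2 members, against 11.4% of all genes, and below them in 0, against 8.87% of all genes.

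**Figure D2:**
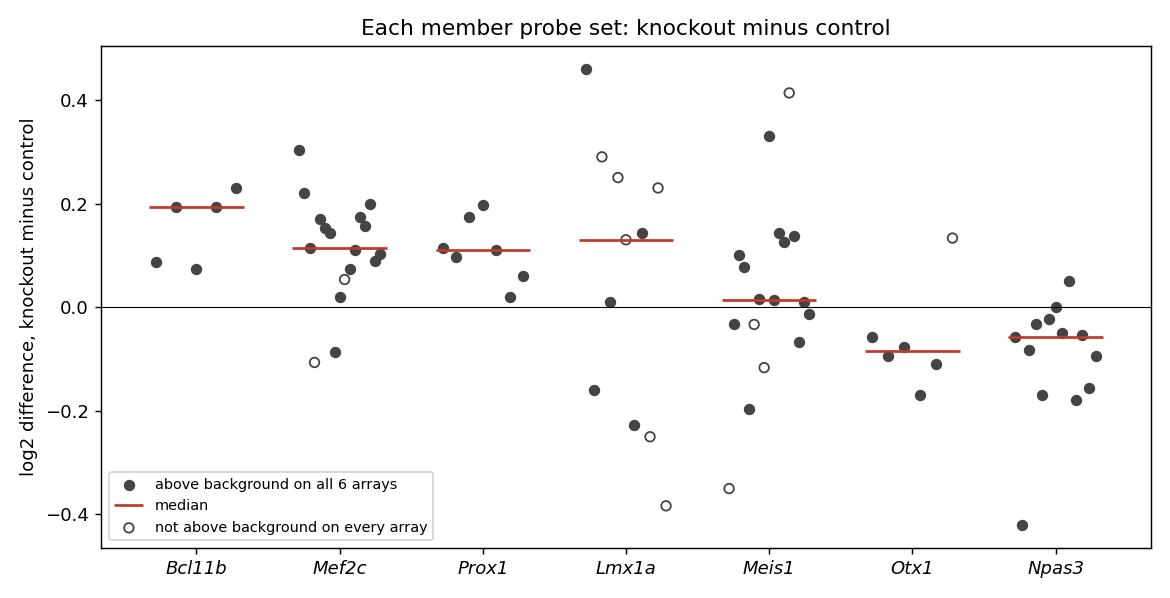
Log2 difference, knockout minus control, of each of the 76 member probe sets, grouped by gene and placed in the order of probe set IDs. Filled points lay above the background of olfactory receptor probe sets on all 6 arrays, open points did not, and red lines are medians. All 5 probe sets of *Bcl11b* and all 7 of *Prox1* lie above 0, while *Lmx1a* and *Meis1* spread to both sides.

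Signal was read against olfactory receptor genes, which are mostly silent in brain. A probe set counted as above background where it exceeded, on each array, the 95th percentile of the 184 probe sets of these genes. That level lay between 4.95 and 5.09 in knockouts and between 5.02 and 5.11 in controls. Of the member probe sets, 63 of 76 (82.9%) were above it on all 6 arrays, 3 on some and 10 on none, where 70.9% of all probe sets were above it on all arrays. All 5 probe sets of *Bcl11b*, all 7 of *Prox1* and all 13 of *Npas3* cleared it, as did 15 of 17 of *Mef2c*, 13 of 17 of *Meis1* and 5 of 6 of *Otx1*. *Lmx1a* cleared it at 5 of 11, with 4 probe sets that did so on no array, so its average includes probe sets at background.

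Among the forebrain and hippocampal factors, *Bcl11b* had gene means of 9.26, 9.24 and 9.25 in knockouts 1, 2 and 3 and of 9.04, 9.20 and 9.04 in controls 1, 2 and 3. The knockout arrays were close to each other and lay above every control, with control 2 nearest to them. The mean was 9.25 ± 0.0072 (SD, n = 3) in knockouts and 9.09 ± 0.095 (SD, n = 3) in controls. The log2 difference was 0.16, or 1.11-fold, with an SE of 0.058 and a 95% interval of 0.02 to 0.29 (limma adjusted p = 0.309). An exact two-sided permutation test gave 0.1, the smallest p that 3 arrays against 3 allow, the same as for any gene whose groups do not overlap. All 5 of its probe sets were higher, by 0.07 to 0.23. At probe set 10402558, the one with the smallest p, signals were 9.79, 9.83 and 9.72 in knockouts against 9.52, 9.63 and 9.61 in controls (limma adjusted p = 0.649). At the brightest probe set, with a mean signal of 11.30, the difference was 0.09.

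*Mef2c* had gene means of 9.50, 9.60 and 9.49 in knockouts 1, 2 and 3 and of 9.38, 9.39 and 9.48 in controls 1, 2 and 3. Knockout 3 and control 3 lay next to each other, and the groups did not overlap. The log2 difference was 0.11 or 1.08-fold (SE 0.054, 95% interval -0.01 to 0.24, limma adjusted p = 0.404; exact permutation p = 0.1). The 17 probe sets fell into 2 sets by signal, a division made after the values were seen. In 12 the mean signal lay between 10.19 and 11.88, and in 5 between 4.48 and 6.77. All 12 bright ones had a positive difference, from 0.02 to 0.20, with a median of 0.13, and so had 3 of the 5 dim ones. Averaged over the 12, the arrays read 11.01, 11.10 and 11.03 in knockouts against 10.90, 10.92 and 10.93 in controls. The dim probe sets varied more, with a median range over the 6 arrays of 0.86, against 0.23 for the bright ones. At probe set 10406449, with the smallest p of the gene, signals were 10.27, 10.33 and 10.28 in knockouts against 10.10, 10.09 and 10.09 in controls (limma adjusted p = 0.621). Knockout 2, with the highest *Mef2c* value, had the lowest mean of the microglial list (5.49, against 6.05 to 6.15 on the other arrays). The part of microglia in the *Mef2c* values was not tested.

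**Figure D3:**
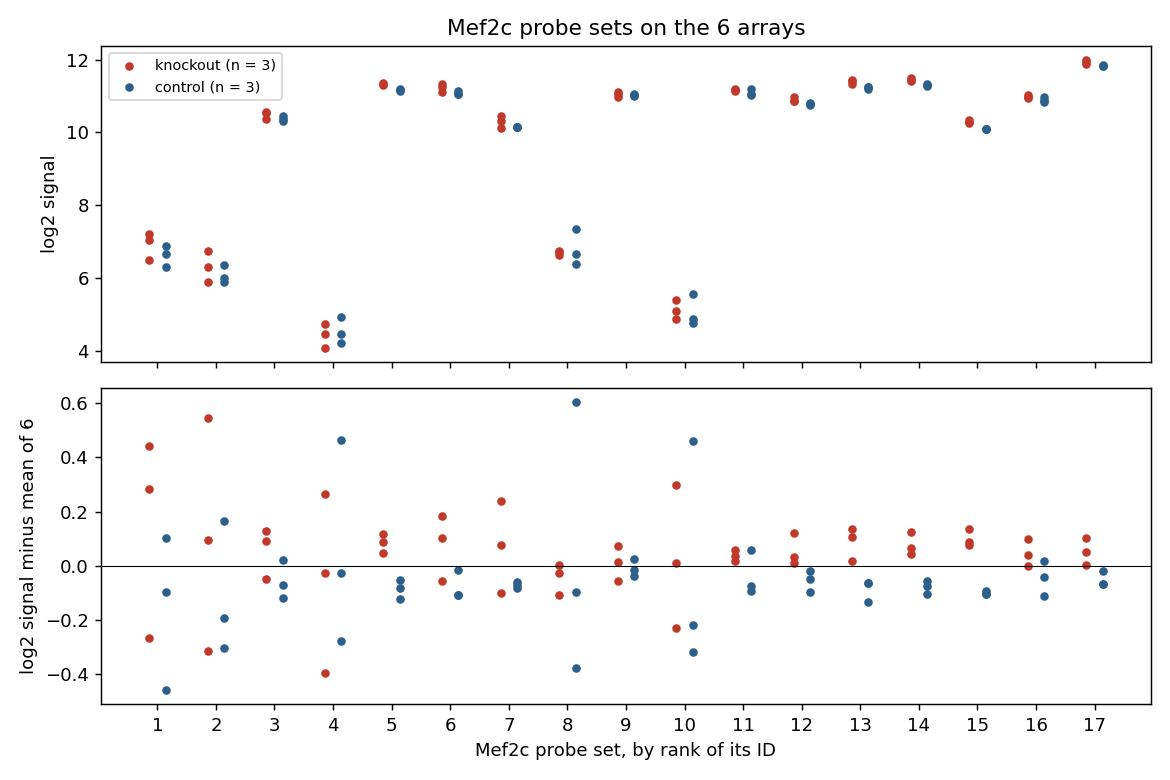
Signals of the 17 *Mef2c* probe sets, in the order of their IDs, in 3 knockout and 3 control arrays: log2 signal above, and log2 signal minus the mean of the 6 arrays below. The 12 bright probe sets, between 10.19 and 11.88, have knockout points mostly above control points, while the 5 dim ones scatter widely in both groups.

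*Prox1* had gene means of 7.71, 7.72 and 7.53 in knockouts 1, 2 and 3 and of 7.45, 7.64 and 7.54 in controls 1, 2 and 3. Knockout 3 lay within the controls, so the groups overlapped, although each of the 7 probe sets had a higher knockout mean, by 0.02 to 0.20. The log2 difference was 0.11 (SE 0.074, 95% interval -0.06 to 0.28, limma adjusted p = 0.538). At probe set 10361026, with the smallest p of the gene, signals were 7.96, 8.15 and 7.98 in knockouts against 7.74, 8.01 and 7.82 in controls (limma adjusted p = 0.724). No probe set of *Prox1* had every knockout above every control. Other hippocampal genes went both ways, with 4 of 8 higher and 4 lower, from *Lct* at -0.33 to *Plk5* at 0.20. *C1ql2*, a synaptic protein of dentate granule cells, was at -0.24 (SE 0.065, limma adjusted p = 0.230), opposite in sign to *Prox1*. *Plk5* and *Dsp*, the latter at 0.09 (SE 0.088, limma adjusted p = 0.692), had the same sign as *Prox1*. *Lct*, *Plk5*, *C1ql2* and *Dsp* were named after their values were seen.

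*Otx1* had gene means of 5.93, 5.90 and 5.88 in knockouts 1, 2 and 3 and of 6.07, 5.97 and 5.87 in controls 1, 2 and 3. The knockouts were close together inside the range of the controls. Knockout minus control was -0.06 on the log2 scale (SE 0.060, 95% interval -0.20 to 0.08, limma adjusted p = 0.674), and 5 of 6 probe sets were lower. Probe set 10384619, with the smallest p, had 5.68, 5.60 and 5.47 in knockouts against 5.93, 5.74 and 5.59 in controls (limma adjusted p = 0.747). The sixth, the only one that was higher, had a mean signal of 2.23, below background on every array.

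*Npas3* had gene means of 7.58, 7.46 and 7.48 in knockouts 1, 2 and 3 and of 7.60, 7.68 and 7.54 in controls 1, 2 and 3. Knockout 1 lay above control 3, so the groups overlapped. The log2 difference was -0.10 (SE 0.058, 95% interval -0.23 to 0.04, limma adjusted p = 0.485), with 11 of 13 probe sets lower, 1 higher and 1 equal. Probe set 10395721 stood out within the gene at 7.17, 7.30 and 6.93 in knockouts against 7.62, 7.51 and 7.53 in controls. That is a log2 difference of -0.42 (limma adjusted p = 0.56), the lowest difference among all 76 member probe sets, while the median of the gene's 13 was -0.06.

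*Lmx1a*, the midbrain member, had gene means of 5.30, 5.31 and 5.40 in knockouts 1, 2 and 3 and of 5.25, 5.31 and 5.30 in controls 1, 2 and 3. The groups overlapped, and the range over the 6 arrays, 0.14, was the narrowest of the 7 members. Knockout minus control was 0.04 on the log2 scale (SE 0.050, 95% interval -0.07 to 0.16, limma adjusted p = 0.719). Its probe sets disagreed in sign, with 7 higher and 4 lower, from -0.38 to 0.46. Probe set 10351452, with the smallest p, had 4.70, 4.52 and 4.38 in knockouts against 4.77, 4.82 and 4.76 in controls (limma adjusted p = 0.649), all below background. The brightest of them, at a mean signal of 7.52, had a difference of -0.23, against the sign of the gene mean.

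*Meis1* had gene means of 6.10, 6.37 and 6.12 in knockouts 1, 2 and 3 and of 6.24, 6.26 and 5.99 in controls 1, 2 and 3. It had the widest range of the members, 0.38, from control 3 at the low end to knockout 2 at the high end, which is wider than that of 86.4% of all genes. The log2 difference was 0.03 (SE 0.098, 95% interval -0.19 to 0.26, limma adjusted p = 0.910), with 10 probe sets higher and 7 lower. After median centring 7 were higher and 10 lower, and without knockout 2 and control 3, 4 were higher and 13 lower. Probe set 10384517, with the smallest p, had 3.04, 3.25 and 3.24 in knockouts against 2.69, 2.59 and 3.01 in controls (limma adjusted p = 0.598), all below background. The sign of the gene mean turned to -0.05 without knockout 2, to -0.05 without control 3 and to -0.14 without both. The 3 genes of most similar pattern over the 6 arrays were *Rbm8a2* (Pearson r = 0.993), *Xcl1* (r = 0.965) and *Hoxb8* (r = 0.964). All 3 had 0 probe sets above background on every array, 26 of 5016 genes reached an r over 0.9, and all were measured on the same 6 arrays, so this is a description only.

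**Figure D4:**
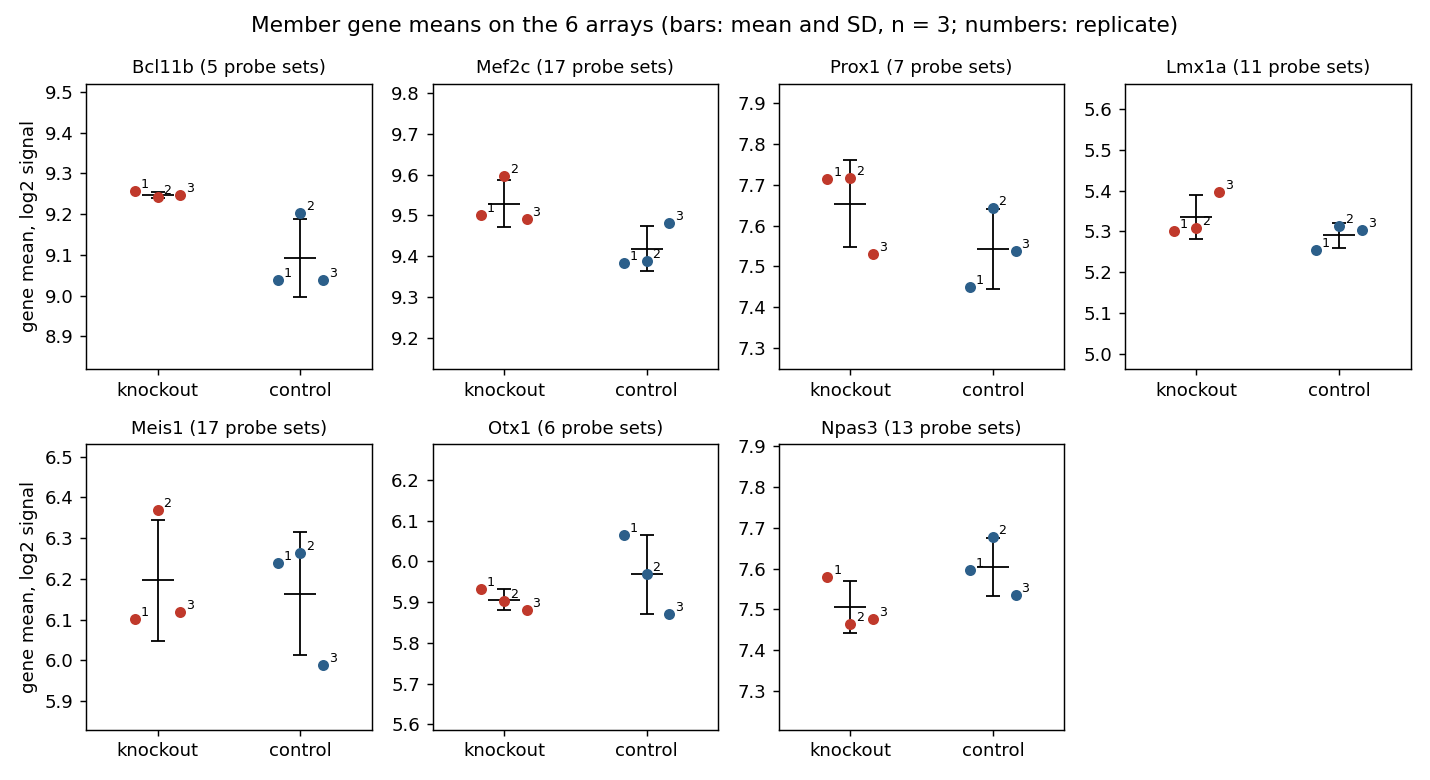
Gene means of the 7 members on each array, knockout left and control right, in log2 signal. Points are arrays numbered by replicate and bars are mean and SD (n = 3); all panels span the same number of log2 units. Only *Bcl11b* and *Mef2c* have all knockout points above all control points, and *Meis1* shows the widest spread.

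In 0 of the 7 members were knockout 2 and control 3 both the highest or both the lowest 2 arrays, and in *Meis1* they lay at opposite ends. Fitted with limma on the other 4 arrays, 2 per genotype, the log2 differences were 0.13 for *Bcl11b*, 0.11 for *Mef2c*, 0.08 for *Prox1*, 0.06 for *Lmx1a*, -0.14 for *Meis1*, -0.11 for *Otx1* and -0.11 for *Npas3*. The smallest limma adjusted p among them was 0.516, at *Meis1*. The sign was kept in 6 of 7 members and turned in *Meis1*, and 0 members passed the test.

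Markers of the same regions, from lists of textbook genes with the members left out, gave 0 genes past the threshold among the 133 measured in 18 lists (limma smallest adjusted p = 0.215), and 21 had an unadjusted p below 0.05, where 14.1% of all genes did. The median log2 difference over all genes was 0.00, -0.02 after quantile normalization and -0.02 after median centring. Of 8 pallial and cortical layer genes 4 were higher and 4 lower, with a median of 0.04, and the 2 of highest signal, *Nrn1*, a neurotrophic cell-surface protein, and *Nptx1*, a synaptic pentraxin, were at -0.03 and -0.01. Of 8 hippocampal genes 4 were higher and 4 lower, with a median of 0.01 as deposited and -0.01 after median centring, *Bok*, a BCL2 relative, at 0.15 and *Man1a*, a mannosidase, at -0.06. Of 10 striatal genes 5 were higher and 5 lower, with a median of 0.01 that was -0.01 after either normalization, *Gng7*, a G protein subunit, at -0.02 and *Rgs9*, a regulator of G protein signalling in striatum, at 0.03. Of 9 thalamic genes 5 were higher and 4 lower, with a median of 0.01 that was -0.01 after median centring, *Adarb1*, an RNA editing enzyme, at 0.06 and *Rgs16* at -0.02. Of 4 interneuron genes 2 were higher, with *Erbb4*, a neuregulin receptor, at 0.10 and the neuropeptide gene *Vip* at -0.22, and of 3 olfactory bulb genes 2 were higher, with *Etv1*, an ETS factor, at 0.12 and *Tbx21*, a T-box factor of mitral cells, at -0.13. *Sp8*, the other olfactory bulb gene that was higher, had a mean signal of 4.46, and its gene means lay below the background level on every array. Of its 8 probe sets, 3 were above that level on all arrays.

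Of the 39 genes in the midbrain list, the list nearest to *Lmx1a*, only 6 were measured. All 6 were lower in the knockout, also without knockout 2 and control 3. Their median was -0.14, and -0.15 and -0.16 after quantile normalization and median centring. *Slc6a3*, the dopamine transporter, was at -0.11 (SE 0.062) and *Ddc*, the decarboxylase of dopamine and serotonin synthesis, at -0.05 (SE 0.056). *Foxa1* and *En1*, at low mean signals of 5.70 and 5.45, were at -0.16 and -0.10. The lowest 2 of the 6, named after their values were seen, were serotonin genes of the raphe. *Tph2*, the brain tryptophan hydroxylase, had 6.35, 6.59 and 6.49 in knockouts against 6.71, 6.93 and 6.99 in controls, which is a difference of -0.40 on the log2 scale (SE 0.090, limma adjusted p = 0.215). *Slc6a4*, the serotonin transporter, had 6.23, 6.48 and 6.31 in knockouts against 6.47, 6.65 and 6.79 in controls (-0.30, SE 0.094, limma adjusted p = 0.252). *Tph2* values did not overlap between groups, those of *Slc6a4* overlapped at knockout 2 and control 1, and without knockout 2 and control 3 the differences were -0.40 and -0.30. The gene mean of *Lmx1a* differed by 0.04, but only 5 of its 11 probe sets were above background on all arrays. Its brightest probe set, at a mean signal of 7.52, was at -0.23. The next brightest, at 6.72, was at -0.16, while 7 of the 11 were higher. Of 13 hypothalamic genes 10 were lower, with a median of -0.07, *Ahi1* at 0.00 and *Hap1* at 0.02. Of 6 cerebellar genes 4 were lower, with a median of -0.08, *Aldoc*, an aldolase, at -0.02 and *Etv1* at 0.12, and *Gabra6* and *Fat2* are in this list. Of 12 hindbrain genes 7 were lower, with a median of -0.01, *Glra1*, a glycine receptor subunit, at 0.13 and *Tfap2b* at 0.11. The 7 measured Hoxb genes lay between -0.12 and 0.03. Except for *Hoxb3*, with a mean signal of 5.21, their gene means lay below the background level on every array. So did those of *Tlx3*, with a mean signal of 4.85. Single probe sets did clear that level on all arrays, with 2 of 4 for *Hoxb2* and 2 of 3 for *Tlx3*. For *Hoxb8* it was 0 of 3. At such low gene means, differences near 0 in these genes cannot show whether the arrays held equal amounts of hindbrain. *Glra1* had a higher mean signal, 7.43, and all 9 of its probe sets cleared the level.

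**Figure D5:**
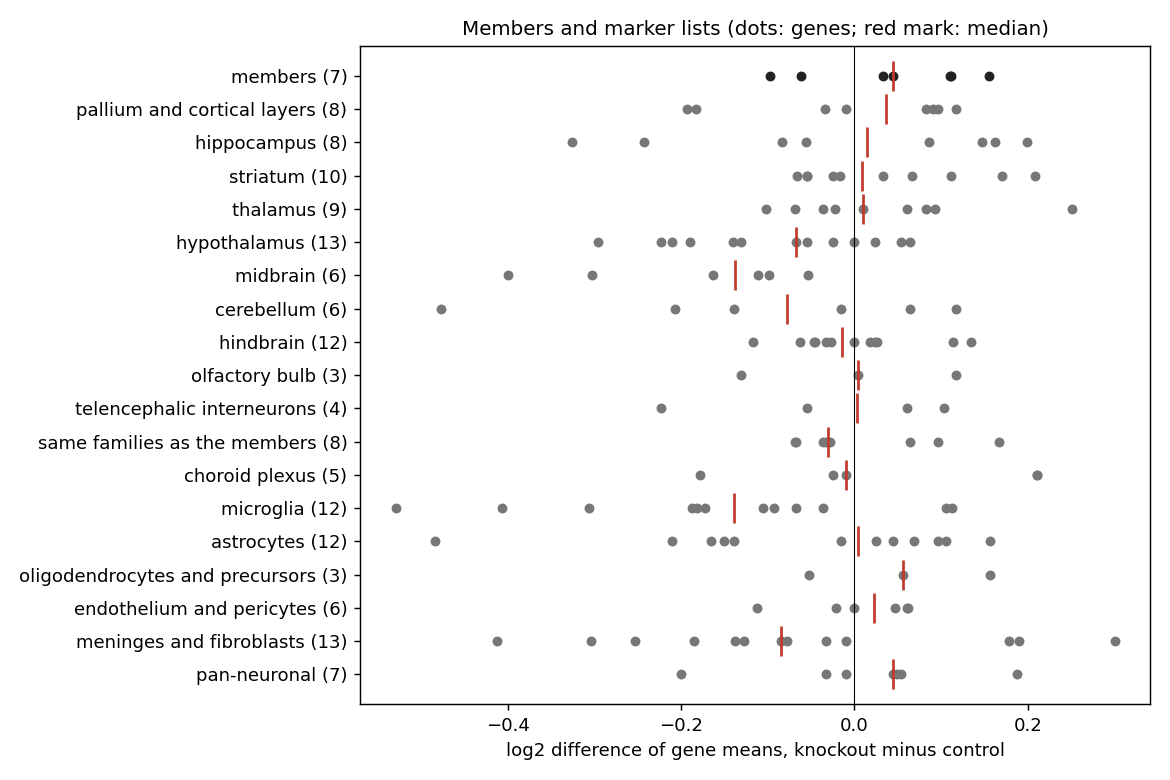
Log2 differences of gene means, knockout minus control, for the 7 members (top row) and for the genes measured in each of 18 lists, with the number measured in brackets. Dots are genes and red marks are medians. All 6 measured midbrain genes lie left of 0, while forebrain lists and the members fall on both sides.

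Relatives of the members in their gene families went both ways, with 3 of 8 higher and a median of -0.03. *Npas2*, a PAS factor of the forebrain clock, was at 0.17 (SE 0.053, limma adjusted p = 0.252) and *Hif1a*, the hypoxia factor, at -0.03. Markers of other cell types also had 0 genes past the threshold. Of 12 microglial genes 10 were lower with a median of -0.14, among them *Cd68* at -0.41 and *Fcer1g* at -0.09. The mean level of this list was 6.15, 5.49 and 6.08 in knockouts against 6.08, 6.05 and 6.06 in controls, so knockout 2 alone was low. Without knockout 2, 8 of the 12 were higher and 4 lower, with a median of 0.09, and without knockout 2 and control 3, 7 were higher and 5 lower, with a median of 0.04. Of 13 meningeal genes 10 were lower with a median of -0.08, with *Dcn* at -0.25 and *Fmod* at -0.14. Of 12 astrocyte genes 6 were higher and the median was 0.00 as deposited and -0.02 after either normalization, with *Glul* at 0.02 and *Aldoc* at -0.02. *Gfap*, named after its value was seen, was at -0.48 (SE 0.25, limma adjusted p = 0.427). It was lowest on knockout 2 (9.02) and highest on control 3 (10.42), and without those arrays the difference was -0.03. All knockouts lay below all controls in 3 of the 12, against 8.87% of all genes, and above them in 0, against 11.4% of all genes. That was not particular to astrocytes. Among thalamic genes 3 of 9 lay above and 0 below, and among hippocampal genes 2 of 8 lay below and 0 above. Choroid plexus genes were higher in 2 of 5, with *Kcnj13* at 0.21 and *Ace* at -0.03, endothelial and pericyte genes in 3 of 6, with *Vtn* at 0.00 and *Cd34* at 0.05, oligodendrocyte genes in 2 of 3, with *Cnp* at -0.05 and *Tnr* at 0.06, and pan-neuronal genes in 4 of 7, with *Syt1* at 0.05 and *Kif5a* at 0.05. The medians of these 4 lists lay between -0.01 and 0.06. Without knockout 2, 4 of 5 choroid plexus genes were higher, with a median of 0.02. Their part in the member values was not tested.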

How the data were processed

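The authors deposited 1 table of log2 signals with 2 decimals per probe set for 3 knockout and 3 control arrays; the scale was read from the values, and per the submitters' processing notes the tool was MAS5, with no version. How the arrays were scaled, and the genome build, are not given in the sources used here. Probe sets with IDs below the first annotated one (6616, taken as control features) were left out. Of the 58919 others, 53644 had 1 symbol, 877 several and 4398 none, by the platform's annotation, and symbols were updated through RefSeq gene synonyms. Gene means averaged all single-symbol probe sets of a gene. Knockout minus control was fitted with limma 3.58.1 (R 4.3.3) on all probe sets and on all gene means, without further normalization, with two-sided p-values adjusted by Benjamini-Hochberg across every feature and a threshold of 0.05. The fit was tested on simulated data. The number of arrays limits the precision. Alternatives were quantile normalization, median centring, trend with robust moderation, leaving out the dimmest probe sets (39277 kept), array weights, a replicate block, each array left out, other gene summaries, another background and, added after seeing the data, both arrays of high *Gabra6* left out. Members and lists were chosen with earlier results of these data known. Named genes were all members, the 2 of highest signal in each list, the probe set of smallest p of a member and the 3 genes most like the member of widest range. Any other gene given with values was named after those values were seen, also where the text does not mark it.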

Additional observations from a re-analysis of the deposited data

How the results depend on the processing

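The count of member probe sets past the threshold was 0 in every setting run, as was the count of member genes and that of listed genes, with smallest limma adjusted p over all settings of 0.387, 0.16 and 0.0999; at an unadjusted p below 0.05 the fit as reported had 4 of 76, 1 of 7 and 21 of 133, where 7.69% of all probe sets and 14.1% of all genes did. Over all 58919 probe sets the calls numbered 3 as reported, 6 after quantile normalization, 7 after median centring or with array weights, 21 with trend and robust moderation, 19 without the dimmest probe sets, 0 with the replicate block and 0 to 4 leaving out 1 array. At an adjusted p below 0.1 no member probe set passed either. Deviations of same-numbered arrays from their group means correlated at 0.04, -0.07 and -0.10, and those of other pairs between -0.08 and 0.14. With 3 arrays per group these correlations depend on each other, so they cannot show whether the numbers pair the arrays. With the number as a replicate block the smallest limma adjusted p was 0.72 over member probe sets, 0.361 over member genes and 0.311 over listed genes. The block thus changed no call of a member or listed gene. Over 15 alternatives, 5 of the 7 members kept their sign in all. *Meis1*, at 0.03, was at -0.0065 with array weights, -0.0530 without knockout 2, -0.0545 without control 3 and -0.14 without both, a setting chosen after seeing the data. *Lmx1a*, at 0.04, was at -0.23 by its brightest probe set. Leaving out 1 array, *Bcl11b* ran from 0.13 to 0.21, *Mef2c* from 0.08 to 0.14, *Prox1* from 0.06 to 0.17, *Lmx1a* from 0.01 to 0.06, *Meis1* from -0.0545 to 0.0825, *Otx1* from -0.11 to -0.01 and *Npas3* from -0.13 to -0.06. Against the control-feature median 68 in place of 63 member probe sets were above background on all arrays. The range of *Meis1* was 0.36 and 0.35 after quantile normalization and median centring. The cause of the reversals was not tested.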

Other observations

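Hormone genes of the pituitary, a gland that hangs below the hypothalamus, were uneven between arrays too; they were picked after their values were seen. *Prl*, the prolactin gene, had gene means of 5.59, 7.28 and 4.81 in knockouts 1, 2 and 3 and of 6.65, 5.02 and 4.94 in controls 1, 2 and 3, the fourth widest range of all 5017 genes (2.46). *Gh*, the growth hormone gene, had 4.48, 5.71 and 4.45 in knockouts and 4.94, 4.88 and 4.48 in controls. Both were highest on knockout 2, and on control 3, the other array of high *Gabra6*, both were low. Neither passed the test between genotypes (limma adjusted p = 0.845 for *Prl* and 0.901 for *Gh*).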
